A study of Caenorhabditis elegans with 6 samples.

Results

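The abu genes of the nematode Caenorhabditis elegans were examined in larvae that were active in the third larval stage (L3) and in larvae at the quiet phase that ends it, L3 lethargus. The members were 9 genes listed by name, abu-4, abu-6, abu-8, abu-10, abu-11, abu-12, abu-13, abu-14 and abu-15. All 9 were on the array, on 14 of the 22548 probe sets tested, each of which the array annotation assigns to a single gene. The 9 genes were also 9 of the 17118 genes with a probe set of their own. Of the 14 probe sets, 5 carry a plain identifier, 4 carry the mark _s_at and 5 carry _x_at, which flag probes able to bind transcripts of related genes as well. For 6 genes (abu-6, abu-8, abu-11, abu-12, abu-13 and abu-15) every probe set is marked.

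The animals were of the wild-type strain N2, hatched without food over 16 hours, then fed together on DA837 bacteria and grown at 20 °C. Moving larvae in L3 were hand-picked 32 hours after feeding, and larvae that neither moved nor fed were picked as L3 lethargus at 37 hours, so that behaviour, age and phase of the molt changed together. Each group held 3 arrays, and each array was made from amplified RNA of 200 whole animals pooled from 10 tubes of 20. Pools carry separate numbers, but no source says that they were grown or picked on separate days, so p-values reflect pool-to-pool spread, which may be technical. Median log2 values of the 6 arrays ran from 7.09 to 7.19. Probe sets for Bacillus subtilis control transcripts, a guide to background, reached 5.73 on the log2 scale. L3 replicate 3 stood apart from its group: on the leading principal component of all probe sets it scored 0.824, with -47.7 and -40.9 for L3 replicates 1 and 2 and 19.5 to 39.1 for lethargus, and results are therefore also given without it.

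The abu genes were named for their activation when the unfolded protein response, the cell's answer to misfolded protein in the endoplasmic reticulum (ER), is blocked. Many encode secreted repeat proteins rich in glutamine and asparagine and related to the pqn proteins. Members of this group are known as building material of the cuticle that lines the pharynx, the feeding organ, which is shed and remade at every molt. Whole-animal RNA does not show where in the body a transcript was made, and in such samples fewer cells of a type and less RNA per cell cannot be told apart.

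Between active L3 and L3 lethargus the genes took 3 courses. Probe sets for abu-6, abu-8, abu-10 and abu-15 rose 15.0- to 47.7-fold, and the probe set of abu-11 and 1 of the 3 for abu-4 rose less. abu-12 and abu-13 had lower means in lethargus, with changes of -1.82 and -1.95 on the log2 scale that did not pass the test. abu-14 had small positive changes, 0.32 and 0.51, that did not pass it either. Lethargus was compared with L3 by limma across all 22548 probe sets, with calls made at an adjusted p no higher than 0.05. By this test 8 of the 14 probe sets, from 6 genes, were called higher, and 0.754% of all probe sets were called higher. None of the 14 was called lower by limma, against 0.213% of all probe sets, while at an unadjusted p under 0.05 the 14 held 9 that were higher and 2 that were lower, against 5.44% and 5.11% of all probe sets. The median change was 2.12 over the 14 probe sets and 0.016 over all probe sets. These counts describe the genes and are no test of the list, since the genes and their split into courses were chosen with earlier results of these data known. The difference between the courses was not tested for the same reason.

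**Figure D1:**
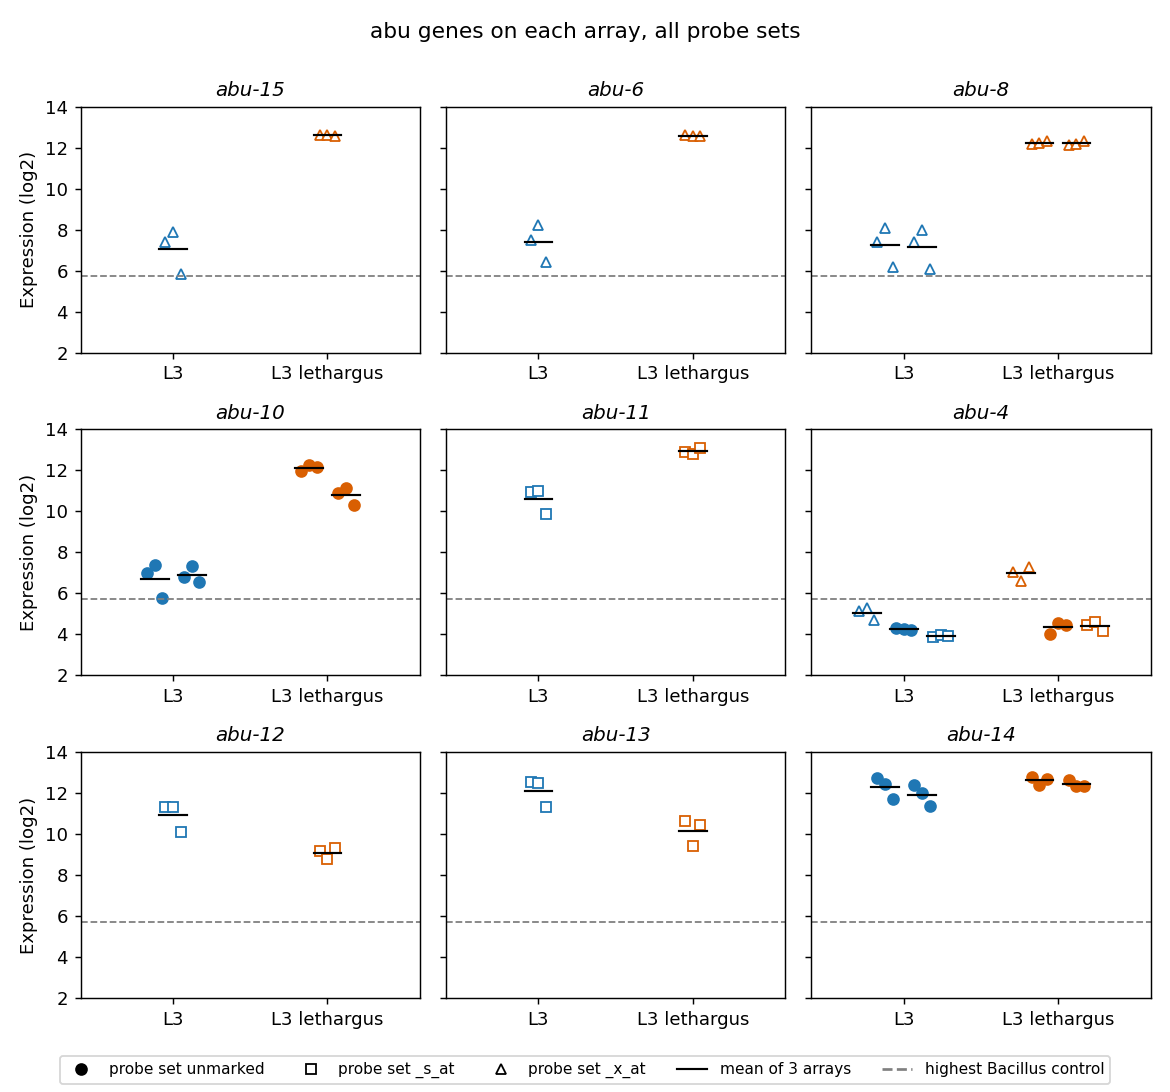
Expression of the 9 abu genes on every array, one panel per gene, with the log2 level on the vertical axis and the stage on the horizontal axis. Each point is an array, the shape gives the mark of the probe set, black lines are means of 3 arrays and the dashed line is the highest Bacillus control at 5.73. Lethargus arrays lie above all L3 arrays for abu-15, abu-6, abu-8, abu-10 and abu-11, below them for abu-12 and abu-13, and overlap them for abu-14.

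abu-15 had the largest estimated change of the 9 genes, and its lead over the other rising genes was not tested. Its log2 levels were 7.38, 7.88 and 5.86 in L3 and 12.63, 12.62 and 12.59 in lethargus. The lethargus arrays lay far above every L3 array and within 0.03 of each other, whereas the L3 arrays spanned 2.01. Group means were 7.04 ± 1.05 (SD, n = 3) and 12.61 ± 0.02 (n = 3), which differ by 5.58 (SE 0.46, 95% confidence interval 4.50 to 6.65, adjusted p = 0.0026 from limma). This is a 47.7-fold rise, with an interval from 22.7- to 101-fold.

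abu-6, which lies beside abu-15 in the RefSeq gene table, followed nearly the same course. Its log2 levels were 7.50, 8.21 and 6.43 in L3 and 12.60, 12.57 and 12.59 in lethargus. The groups did not overlap, and the lethargus arrays again spanned 0.03. The change was 5.21 (SE 0.40, adjusted p = 0.00188 from limma), a 36.9-fold rise.

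abu-8 lies near these genes, with 6 protein-coding genes between it and abu-7, the neighbour of abu-6. On its brighter probe set the log2 levels were 7.42, 8.09 and 6.20 in L3 and 12.16, 12.24 and 12.32 in lethargus. Its other probe set gave 7.38, 8.0 and 6.09 against 12.14, 12.19 and 12.34. Every lethargus array was above every L3 array on both, and the changes of 5.00 and 5.07 differed by less than their standard errors of 0.42 and 0.43. Adjusted p-values from limma were 0.00288 and 0.00293. The probe sets of abu-6, abu-8 and abu-15 all carry the mark _x_at, so the rises of these genes are not shown to be separate.

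abu-10 was the sole gene that rose on unmarked probe sets, and it did so on both of them. The brighter probe set had log2 levels of 6.98, 7.37 and 5.79 in L3 and 11.98, 12.24 and 12.16 in lethargus. Its change was 5.41 (SE 0.37, 95% interval 4.54 to 6.28, adjusted p = 0.00138 from limma), a 42.6-fold rise. The dimmer probe set had 6.82, 7.32 and 6.55 against 10.92, 11.15 and 10.33. Here the groups also stood apart, but the change was smaller, at 3.91 (SE 0.27, 95% interval 3.28 to 4.53, adjusted p = 0.00138), or 15.0-fold. The intervals of the 2 probe sets did not overlap, and the difference between them was not tested. With the mean of both probe sets the change of abu-10 was 4.66 (adjusted p = 0.00112).

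The rises of these 4 genes were called with any array left out. Adjusted p-values with an array left out reached at most 0.0295. Without L3 replicate 3 the changes were smaller, at 4.99 for abu-15, 4.73 for abu-6, 4.49 and 4.53 for abu-8 and 4.95 and 3.73 for abu-10. On the fold scale these values are 31.8, 26.5, 22.5, 23.1, 30.9 and 13.3.

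abu-11, a gene whose overexpression is known to lengthen worm life span, rose from a high level. Its log2 levels were 10.96, 10.99 and 9.87 in L3 and 12.90, 12.80 and 13.08 in lethargus. The groups did not overlap, and L3 replicate 3 was the lowest array. The change of 2.32 (SE 0.30, adjusted p = 0.0168 from limma) is a 4.98-fold rise. The call ended with any lethargus array left out, with adjusted p-values of 0.105, 0.0813 and 0.0915 without replicates 1, 2 and 3 and changes of 2.33, 2.38 and 2.24. Its single probe set is marked _s_at.

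abu-4 gave different answers on its 3 probe sets. The brightest, marked _x_at, had log2 levels of 5.15, 5.29 and 4.71 in L3 and 7.02, 6.61 and 7.29 in lethargus, and in L3 it was no brighter than the brightest Bacillus control. It rose by 1.92 (SE 0.22, adjusted p = 0.0107 from limma). Taken from the brightest control of each array in L3, the rise was at least 2.79-fold, a bound that allows for background alone. The call ended without L3 replicate 1 (adjusted p = 0.0528), without lethargus replicate 1 (0.0763) and without lethargus replicate 3 (0.0510). The unmarked probe set had 4.32, 4.28 and 4.20 against 4.00, 4.56 and 4.46, and the groups overlapped. The probe set marked _s_at had 3.86, 3.98 and 3.94 against 4.44, 4.60 and 4.17. On both of these the 2 means lay below the highest control, with changes of 0.07 and 0.47 and adjusted p-values of 0.967 and 0.258. The called rise of abu-4 thus rests on a probe set that can match related genes.

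**Figure D2:**
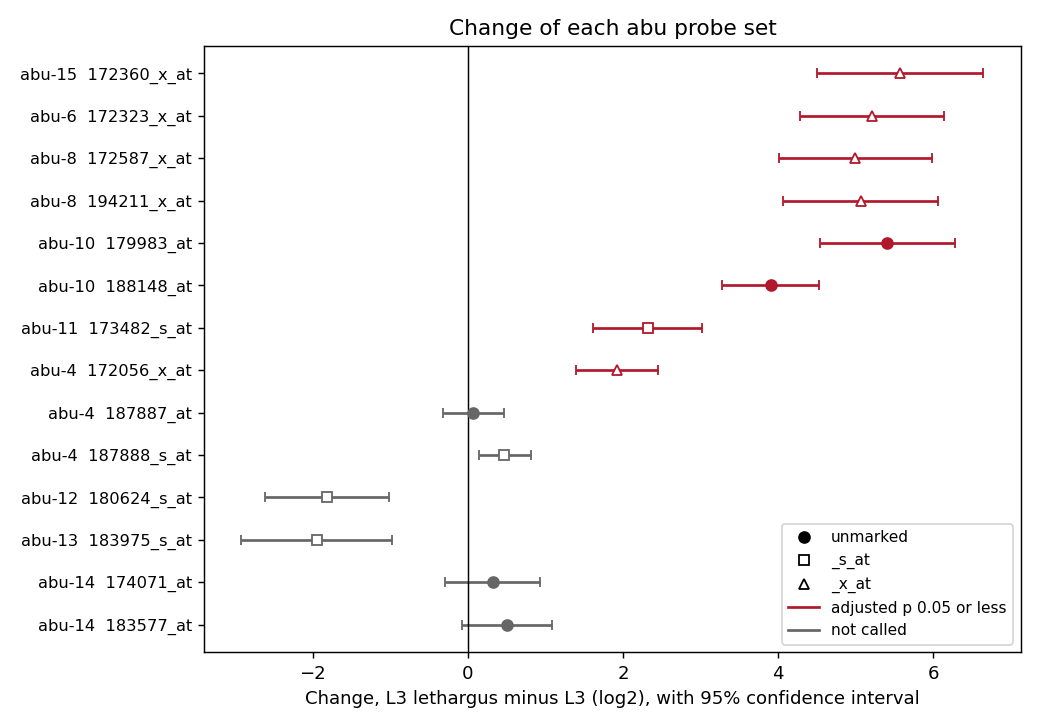
Change of each of the 14 abu probe sets, lethargus minus L3 on the log2 scale (horizontal axis), with 95% confidence intervals from limma. Red marks an adjusted p of 0.05 or less. Probe sets for abu-6, abu-8, abu-10 and abu-15, 6 in all, lie between 3.91 and 5.58, abu-11 and the called probe set of abu-4 near 2, abu-12 and abu-13 near -2, and both probe sets of abu-14 have intervals that include 0.

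abu-12 and abu-13 had the opposite sign. The log2 levels of abu-12 were 11.32, 11.32 and 10.09 in L3 and 9.15, 8.79 and 9.33 in lethargus. Those of abu-13 were 12.53, 12.49 and 11.33 in L3 and 10.63, 9.42 and 10.44 in lethargus. For both genes every lethargus array lay below every L3 array, and L3 replicate 3 lay between the other L3 arrays and the lethargus arrays. Over all probe sets, 6.57% had all lethargus arrays below all L3 arrays and 7.81% had all above. Among the 14 abu probe sets 2 lay below and 9 above, and 3 overlapped.

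The change of abu-12 was -1.82 (SE 0.34, 95% interval -2.62 to -1.02, adjusted p = 0.0739 from limma). That of abu-13 was -1.95 (SE 0.42, 95% interval -2.92 to -0.98, adjusted p = 0.101). Neither was called on the 6 arrays. The calls turned on L3 replicate 3. Without it abu-12 had -2.23 (adjusted p = 0.0011) and abu-13 had -2.35 (adjusted p = 0.00804), both called lower, as they also were with array weights (0.0226 and 0.035). With any other array left out neither was called, with adjusted p-values from 0.157 to 0.287 for abu-12 and from 0.186 to 0.387 for abu-13. The whole table behaved alike. Of all probe sets, 563 were called lower without L3 replicate 3, and 0 or 1 with any other array left out. The dependence on this array is thus not particular to abu-12 and abu-13. Both probe sets are marked _s_at.

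abu-14 kept a high level at both times on 2 unmarked probe sets. The brighter had log2 levels of 12.73, 12.45 and 11.73 in L3 and 12.80, 12.39 and 12.67 in lethargus. The dimmer had 12.37, 12.01 and 11.39 against 12.63, 12.33 and 12.35. The groups overlapped on both, and L3 replicate 3 was the lowest of all 6 arrays on each. The changes were 0.32 (95% interval -0.29 to 0.93, adjusted p = 0.834 from limma) and 0.51 (95% interval -0.07 to 1.09, adjusted p = 0.569). On the fold scale the intervals ran from 0.816 to 1.90 and from 0.955 to 2.13, so that rises of up to 1.90- and 2.13-fold lie within them. Against L3 replicates 1 and 2 alone the changes were 0.03 and 0.25.

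L3 replicate 3 was lower than both other L3 arrays on 13 of the 14 abu probe sets, as were 37.1% of all probe sets. It lay at least 1 log2 unit below the mean of the other L3 arrays on 8 of the 14, against 2.04% of all probe sets. The difference was -1.76 for abu-15, -1.43 for abu-6, -1.55 and -1.60 for abu-8 and -1.39 and -0.52 for abu-10. It was -1.10 for abu-11, -1.23 for abu-12, -1.18 for abu-13, and -0.86 and -0.80 for abu-14. Genes of all 3 courses were thus lower on this array, whichever way they went in lethargus. The array stood apart in other genes too. Among 20 sperm genes, 18 were measured, and their summed signal (linear scale) was 4996 there, while L3 replicates 1 and 2 had 794 and 851 and lethargus had 932 to 2324. Most of the 18, all of those named msp or gsp, were read on probe sets marked _x_at, so their signals are not shown to be separate. The mean of 8 of the 18 lay below the highest control, and by limma none was called between the stages or had an unadjusted p under 0.05. The part of these transcripts in the low abu values was not tested.

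**Figure D3:**
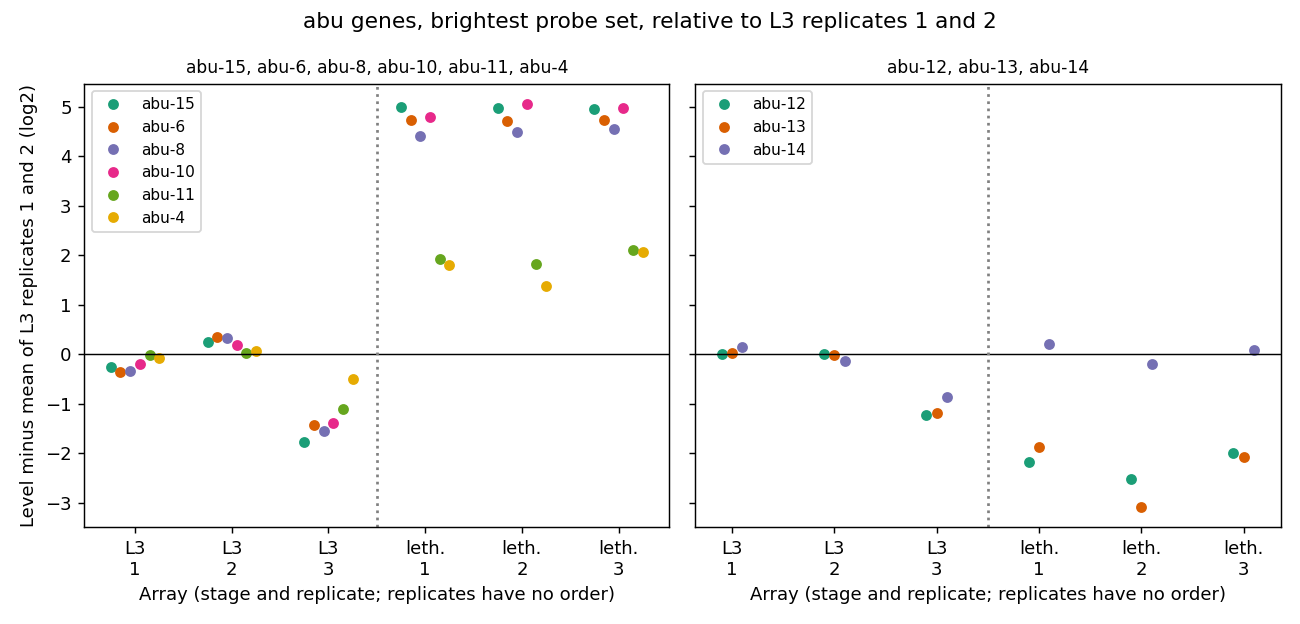
Level of each abu gene (brightest probe set) on each array, as the log2 difference from the mean of L3 replicates 1 and 2. Each point is an array. L3 replicate 3 lies below 0 for all 9 genes, from -0.51 for abu-4 to -1.76 for abu-15. The lethargus arrays lie near 5 for abu-15, abu-6, abu-8 and abu-10, near 2 for abu-11 and abu-4, near 0 for abu-14 and near or below -2 for abu-12 and abu-13.

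Whole profiles of the members were also set side by side, as a description. These are the values that gave the courses, so they lend the split no support. Each profile was taken as the 6 log2 values less their mean, and likeness as the root mean square difference between profiles, for which the arrays share their group structure. The profile of the brighter abu-10 probe set differed by 0.17 from those of abu-15 and abu-6 and by 0.21 and 0.23 from those of abu-8. It differed by 1.56 from abu-11, by 1.79 to 2.71 from the probe sets of abu-4, by 2.57 from the brighter abu-14 probe set and by 3.71 from abu-13. The probe sets of abu-11 and abu-4 were nearer to the brighter probe set of abu-14 than to that of abu-10. From the brighter abu-14 probe set abu-11 differed by 1.01 and the called probe set of abu-4 by 0.83, while the other abu-4 probe sets, whose means lay below the highest control, differed by 0.39 and 0.40. abu-13 was closest to abu-12 among the other members, at 0.26.

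Outside the members, 13413 probe sets of a single gene had a mean above the highest control. Among them the profiles nearest to abu-10 belonged to dct-5 (0.36), C06E8.5 (0.54), nspb-11 and R03C1.1 (0.66 each) and nas-1 (0.71). nas-1 encodes an astacin metalloprotease and nspb-11, on a probe set marked _x_at, a nematode-specific peptide. All 5 were called higher, with changes from 4.21 to 5.49, and all but dct-5 had L3 means below the highest control, where a change can be understated. None was as close to abu-10 as abu-15, abu-6 and abu-8, whose probe sets are all marked _x_at and can bind transcripts of related genes.

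The profiles nearest to abu-13 were those of lhfp-4 (0.03), bah-1 (0.11), a probe set of the molting gene mlt-10 (0.12), D1054.9 (0.13) and C04E6.12 (0.14). bah-1 is known from mutants on whose heads bacterial biofilm does not form. None of these 5 probe sets was called by limma on the 6 arrays, and their changes ran from -1.88 to -2.10. The lethargus means of mlt-10 (4.99) and C04E6.12 (5.63) lay below the highest control, where a change can be understated. The probe set of mlt-10 is marked _x_at and that of D1054.9 _s_at. The profiles nearest to the brighter abu-14 probe set, those of F32B5.2, umps-1, F16A11.1, F10D11.6 and R12A1.3, differed from it by 0.07 to 0.11. Their changes ran from 0.13 to 0.32, and none was called. umps-1, on a probe set marked _s_at, encodes an enzyme of pyrimidine synthesis. With 13413 probe sets searched over 6 arrays, close profiles are a description.

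**Figure D4:**
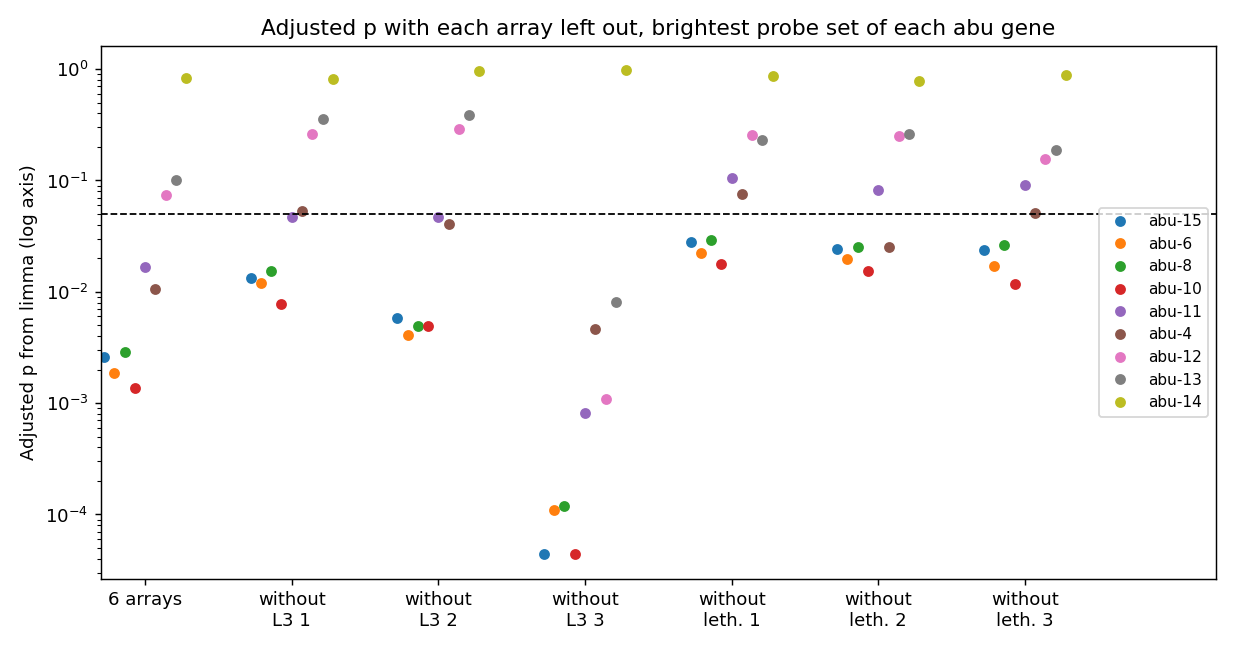
Adjusted p from limma (vertical log axis) for the brightest probe set of each abu gene, on 6 arrays and with each array left out. The dashed line marks 0.05. abu-15, abu-6, abu-8 and abu-10 lie below the line throughout, abu-11 and abu-4 cross it, abu-12 and abu-13 lie below it without L3 replicate 3 alone, and abu-14 lies above it throughout.

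Other abu genes and pqn genes of related sequence were read from the same fit, 1 probe set per gene. Of 14 asked for, 7 had a probe set of their own. Of these 2 rose, none fell by limma and 5 were not called, against 0.754% of all probe sets called higher and 0.213% lower. At an unadjusted p under 0.05, 6 were higher and 1 lower, against 5.44% and 5.11% of all probe sets. pqn-71 went from 4.70, 4.57 and 5.53 in L3, below the highest control, to 10.78, 10.91 and 9.67 in lethargus. The rise was called (adjusted p = 0.00138 from limma). Taken, as for abu-4, from the brightest control of each L3 array, which can lie below 5.73, it was at least 31.1-fold. L3 replicate 3 was the highest L3 array for pqn-71, but each L3 value lay below the highest control, where their order cannot be read.

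pqn-54 rose by 2.76 (SE 0.43, adjusted p = 0.0388 from limma), from 8.62, 9.26 and 7.60 to 10.83, 11.09 and 11.83. The call of pqn-54 held with L3 replicate 2 (0.0472) or 3 (0.00694) left out and ended with any other array left out (0.130 to 0.149). pqn-63 and pqn-74 had changes of 1.78 and 1.27 (adjusted p 0.0997 and 0.0746), and both were called without L3 replicate 3 (0.0246 and 0.0103). Without that array 573 of all probe sets were called higher, against 170 with every array kept, so such gained calls are not particular to these genes. pqn-13 went the way of abu-12 and abu-13, with -1.48 (adjusted p 0.139 from limma). It was called lower without L3 replicate 3 (0.00194), as were 563 of all probe sets. Its other probe set, also unmarked, had -1.40 (adjusted p 0.284), and there the groups overlapped. abu-2 and abu-3 had changes of 0.39 and 0.65 (adjusted p 0.338 and 0.067), and both lay below the highest control in each group. A further 5 probe sets name an abu gene beside other genes, and were not used to name a gene. All 5 are marked and all were called higher, against 0.754% of all probe sets, with changes from 2.88 to 5.12.

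Genes of the unfolded protein response and reported regulators of abu genes were not called. Of 22 measured, none was called in either direction by limma, and the median change was -0.01. At an unadjusted p under 0.05, 2 were higher and 1 was lower, against 5.44% and 5.11% of all probe sets. hsp-4, the ER chaperone that is the usual readout of this response, had 10.87, 11.43 and 11.87 in L3 and 12.48, 12.33 and 12.28 in lethargus. Its probe set is marked _s_at. The groups did not overlap, and the change was 0.98 (SE 0.24, adjusted p = 0.153 from limma). Without L3 replicate 3, the highest of the L3 arrays, it was 1.22 and called (0.0136). Leaving this array out also raised the count of all probe sets called higher from 170 to 573.

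The sensor genes ire-1 and pek-1 had changes of -0.11 and 0.11, and xbp-1, the transcription factor downstream of ire-1, had 0.24. Adjusted p-values from limma were 0.69 to 0.938. The probe set of pek-1 is marked _x_at. ced-1, an engulfment receptor reported to promote abu expression, had -0.15 (adjusted p 0.882). The size of these changes can be set beside the central 95% of all probe sets, which lay between -0.79 and 0.73. hsp-4, with 0.98, lay above this range.

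Markers of the pharynx showed what the whole animals held. At an unadjusted p under 0.05, 3 of 6 pharyngeal muscle genes were higher, against 5.44% of all probe sets. None of the 6 was called by limma, and their median change was 0.34. Their summed signal ran from 6458 to 7772 in L3 and from 8699 to 9499 in lethargus, and none had a mean below the highest control. The myosin gene myo-2, on a probe set marked _s_at, had a change of 0.49 (adjusted p 0.325 from limma). The troponin gene tni-4 had 0.42 (adjusted p 0.266). These values moved in the direction of the abu rises, and their part in those rises was not tested.

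Of 7 pharyngeal gland genes, none rose by limma and 1 fell, with a median change of 0.41 and summed signals of 2895 to 3835 in L3 and 3982 to 4490 in lethargus. Of 8 transcription factors and other genes that build the pharynx, none rose by limma and 1 fell, with a median change of -0.06. By limma 0.213% of all probe sets were called lower. The gene that fell is hlh-6, a transcription factor of the glands, and it is on both lists. Its change was -1.27 (SE 0.16, adjusted p = 0.0166 from limma), and in lethargus its mean was below the highest control. The call of hlh-6 held without L3 replicate 3 (0.00326) and ended without each of the others (0.0594 to 0.113). Without each of those others, 0 or 1 of all probe sets was called lower. pha-4, the selector gene of the pharynx, had 0.21 (adjusted p 0.928 from limma) on a probe set marked _s_at.

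**Figure D5:**
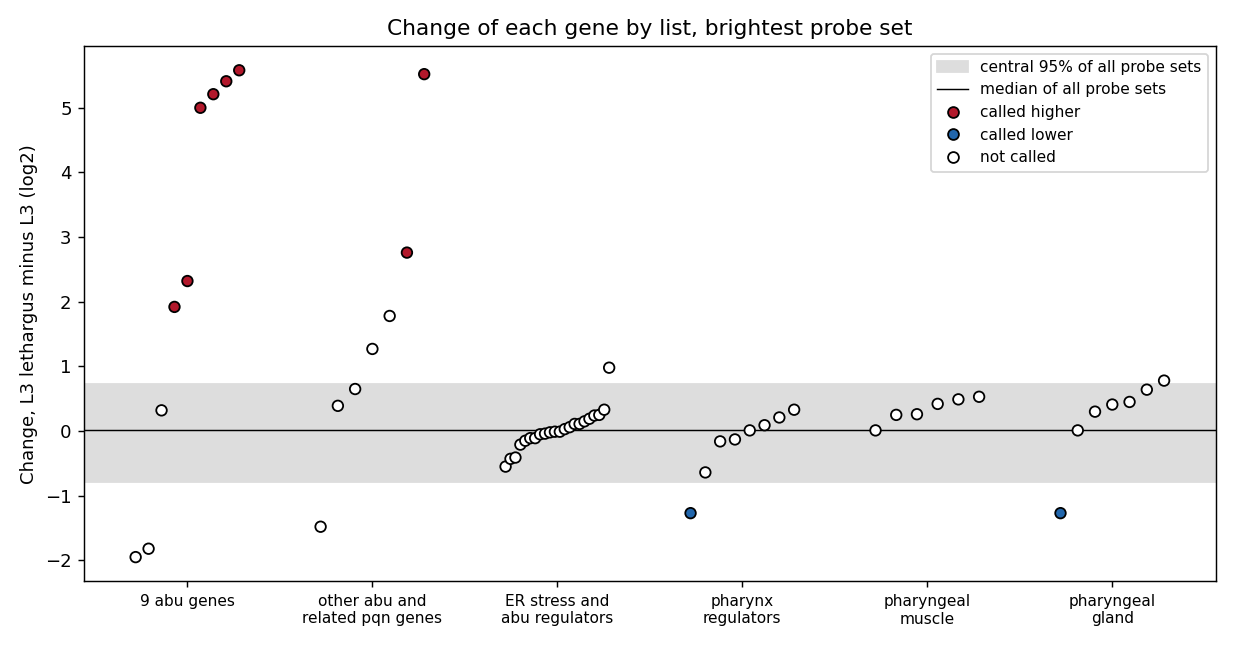
Change of each gene, lethargus minus L3 on the log2 scale (vertical axis), for the 9 abu genes and 5 lists, 1 point per gene by its brightest probe set. Red points were called higher, blue points lower, and the grey band holds the central 95% of all probe sets. Of the 9 abu genes, 8 lie outside the band, as do the related genes pqn-71, pqn-54, pqn-63, pqn-74 and pqn-13. Most ER stress, pharynx regulator, pharyngeal muscle and pharyngeal gland genes lie inside it. The 9 genes were chosen with earlier results of these data known.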

How the data were processed

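The authors deposited log2 values, 1 per probe set and array, that came from RMA, a method that corrects background, brings arrays to a common scale and summarizes probes, per the submitters' processing notes. Its version is not given in the sources used here. RNA was amplified with the Nugen Ovation system and hybridized to the Affymetrix C. elegans Genome Array, per the labels' protocols. The design text names R/maanova at a false discovery rate of 5%, which was not run here.

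Of 22625 probe sets, 77 controls were left out. The array annotation names 1 gene for 20766 probe sets, several for 887 and none for 895. By gene identifier, all 9 genes are in the RefSeq table of WBcel235. No coordinates are given, because no build is named for the array. No sequences were used.

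Changes were fitted with limma (version 3.58.1, under R 4.3.3) using lmFit and eBayes with the group alone in the model, two-sided and without further normalization. Benjamini-Hochberg adjustment ran over 22548 probe sets. The fit was tested on simulated data with independent noise and no outlying array. That test cannot bear on calls that turn on L3 replicate 3. With 3 arrays against 3, an exact permutation test cannot go below 0.1 and was not used. The number of arrays limits the precision. RMA values near background can understate a change, and a probe set's level is not comparable with that of another probe set. The background guide was the highest of 24 Bacillus subtilis probe sets over all arrays (2.42 to 5.73).

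The members and gene lists were chosen with earlier results of these data known. The named genes were all members and their listed relatives, up to 3 called genes of each other list by size of change or the gene with the smallest p, 7 genes named whatever their values (hsp-4, xbp-1, ire-1, pek-1, ced-1, pha-4 and myo-2), and the 5 genes with profiles nearest to each of abu-10, abu-13 and abu-14. Lists used the brightest probe set of a gene. Alternatives tried were quantile normalization once more, arrays set to a common median, the dimmest 25% of probe sets left out, array weights, a variance trend with robust fitting, the replicate number as a block, each array left out, and other ways of choosing a gene's probe set.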

Additional observations from a re-analysis of the deposited data

How the results depend on the processing

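The 8 abu probe sets called higher numbered 6 with the replicate number as a block and 6 to 8 with an array left out, and 8 with the second quantile normalization, the common median, the dimmest 25% left out, array weights and the variance trend with robust fitting. At an unadjusted p under 0.05 there were 9. The 2 calls lost under the block were those of abu-11 (adjusted p 0.112) and abu-4 (0.117). None was called lower, against 2 with array weights (abu-12 at 0.0226 and abu-13 at 0.0350) and 0 to 2 with an array left out. Of 166 changes of the 14 probe sets under an alternative, 153 kept their direction and their side of the threshold, 8 lost a call, 4 gained one, and 1 turned its sign: the unmarked abu-4 probe set had -0.04 without lethargus replicate 2, in a range up to 0.24 with an array left out. The dimmest 25% held 2 abu-4 probe sets, which have no value in that alternative. With unmarked probe sets alone abu-4 was not called (0.07, adjusted p 0.966), and with the mean of its 3 probe sets it was (0.82, adjusted p 0.0285). The relatives called higher numbered 4 with array weights, 1 with the replicate block and 1 to 4 with an array left out, against 2. Those called lower numbered 1 with array weights and 0 to 1 with an array left out, against 0. Over all probe sets, 170 were called higher, against 262 with array weights, 56 with the replicate block, 75 to 573 with an array left out and 1227 at an unadjusted p under 0.05. The 48 called lower compare with 231, 3, 0 to 563 and 1152, and with 77 under a variance trend with robust fitting. L3 replicate 3 gave the highest count in each such range, and the cause was not tested.

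Whether the shared replicate numbers pair the arrays is not stated in the sources used here. Deviations from the group means correlated at 0.264, -0.244 and -0.293 over probe sets for replicates 1, 2 and 3. L3 replicate 1 correlated best with lethargus replicate 1, and L3 replicates 2 and 3 with a lethargus array of another number. Deviations within a group of 3 depend on each other, so these values can neither show nor exclude a shared batch.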

Other observations

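The nearest protein-coding genes on either side of the 9 genes in the RefSeq table, chosen after values were seen, comprised 16 genes that are not members, of which 14 had a probe set of their own. Of these 14, 1 was called higher by limma and none lower, against 0.754% and 0.213% of all probe sets. The gene called higher was Y5H2A.4, beside abu-4, with log2 levels of 4.91, 4.05 and 4.30 in L3 and 6.74, 6.67 and 7.13 in lethargus and a change of 2.43 (adjusted p 0.00543), on a probe set marked _x_at that was below the highest control in L3. chs-2, the chitin synthase gene of the pharynx, lies beside abu-11. On a probe set marked _s_at it had 8.79, 8.93 and 7.62 in L3 and 7.45, 7.16 and 8.57 in lethargus. Its change of -0.72 was not called (adjusted p 0.728 from limma). F35A5.5, beside abu-10, had 9.36, 8.93 and 7.10 in L3 and 6.85, 5.43 and 6.47 in lethargus, a change of -2.21 that was not called (adjusted p 0.201).

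Markers of tissues outside the pharynx were also read. Of 5 body wall muscle genes and 5 intestinal genes, none was called by limma or had an unadjusted p under 0.05, and the median changes were -0.02 and 0.08. The summed signals of the body wall muscle genes ran from 33455 to 33728 in L3 and from 32308 to 35241 in lethargus. The muscle myosin gene unc-54, on a probe set marked _s_at, had 0.12 (adjusted p 0.893 from limma). The intestinal factor elt-2 had -0.27 (adjusted p 0.69).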
